A study of Homo sapiens with 29 samples.

Results

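Genes of the ubiquitin system were followed in HepG2 cells, an established human liver tumour line, treated with CCL or left untreated. Members were all genes whose symbol in the array's probe table begins with UBE2, RNF, TRIM, FBXO, FBXL, FBXW or USP, for the numbered families with a digit after the letters. The probe set with the highest mean stood for each gene. This gave 275 members of 14884 named genes: 27 UBE2 genes, 74 RNF genes, 61 TRIM genes, 59 F-box genes and 54 USP genes. By RefSeq biotype 256 members were protein-coding and 19 were pseudogenes or non-coding RNAs. A gene was tested where its log2 value was above 5 on at least 2 arrays, which held for 143 members and for 6365 genes in all. The other 132 members lay below that filter.

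Ubiquitin is a small protein that is attached to other proteins in a relay: an activating enzyme (E1) loads it, a conjugating enzyme (E2, the UBE2 genes) carries it, and a ligase (E3) selects the substrate. RING-type ligases, among them most RNF and TRIM proteins, bring the loaded E2 next to the substrate, while F-box proteins are the interchangeable substrate receptors of the multi-subunit SCF ligase. Deubiquitinases such as the USP enzymes remove the tag again. In dividing cells this system times the destruction of cell-cycle regulators and handles DNA repair proteins, and in hepatocytes it also clears misfolded secretory proteins.

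CCL is the labels' abbreviation for the herb Cratoxylum cochinchinense Lour. The labels give neither a dose nor a vehicle, so the comparison is with untreated cells of the same time. CCL-treated cells were measured on 3 arrays at 6, 12 and 18 h each and on 2 arrays at 24 and 48 h each, 13 arrays in all. Untreated cells were measured on 3 arrays at 6, 12, 24 and 48 h each and on 2 arrays at 18 h, 14 arrays in all, and on 2 further arrays at 0 h that enter only the estimate of spread. Arrays of a group are numbered as sets 1 to 3, and the labels do not call them separate cultures. The p-values therefore reflect the spread among these arrays alone, which may be technical.

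Values are log2 expression per probe set, quantile-normalized over all 29 arrays because the medians of the deposited values differed, from 2.29 to 3.39. The deposited medians of 6 arrays stood more than 0.1 from the median of their time: untreated 18 h set 1, untreated 24 h set 1, CCL 6 h set 1, CCL 18 h set 3, CCL 24 h set 1 and CCL 48 h set 1. A rule within a time cannot mark a whole time. All arrays of 12 h, in either arm, had deposited medians from 2.51 to 2.54, while untreated arrays of 6 h had 2.96 to 3.01. Of 16 hepatocyte genes listed as markers, all 12 with a named probe set were above the filter, with albumin (ALB) at a mean log2 value of 11.89 in CCL-treated and 11.97 in untreated cells. Other hepatocyte markers differed between the arms by the test described below, in the mean over 5 times on the log2 scale. FGG (-0.67), FGA (-0.53), TTR (-0.51), FOXA2 (-0.47) and APOA1 (-0.42) were lower with CCL. APOA2 was higher (0.27), and the remaining ones, ALB included, did not pass. No listed fibroblast or endothelial marker with a probe set passed the filter, and 2 of 5 leukocyte markers did. These were CD68 and LAPTM5, both lysosomal proteins, whose mean CCL differences were 1.02 ± 0.11 and 1.02 ± 0.13 on the log2 scale (SE), while CD14 and CSF1R lay below the filter. Averaged over the named leukocyte markers, single arrays ran from 4.53 to 5.70 in CCL-treated and from 4.22 to 4.71 in untreated cells, and over the hepatocyte markers from 9.61 to 10.05 and from 9.92 to 10.41. The part of either in the results below was not tested.

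Averaged over the 5 times, 43 of the 143 tested members passed the test, 19 higher and 24 lower in CCL-treated than in untreated cells. That is 30.1% of tested members, against 35.9% of all 6365 genes tested (16.7% higher, 19.2% lower). The test was limma's moderated test with Benjamini-Hochberg adjustment over all 6365 genes, and a gene is said to have risen or fallen where its adjusted p was under 0.05. By family, 3 of 15 UBE2 genes passed (1 higher, 2 lower), 10 of 40 RNF genes (6 higher, 4 lower), 6 of 22 TRIM genes (1 higher, 5 lower), 10 of 30 F-box genes (5 higher, 5 lower) and 14 of 36 USP genes (6 higher, 8 lower). Shares per family ran from 20.0% (UBE2) to 38.9% (USP), and no difference between families was tested. Of the 19 that rose, FBXO25, FBXO46 and USP35 passed the filter through CCL arrays alone, where they were high (FBXO46 and USP35 are named after their values were seen), while the 24 that fell passed it in both arms. The median difference over the tested members was -0.02 on the log2 scale, beside -0.01 over all tested genes, and the median size of the difference was 0.15, beside 0.18. In these bulk samples, fewer cells expressing a gene and less of its RNA per cell cannot be told apart.

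**Figure D1:**
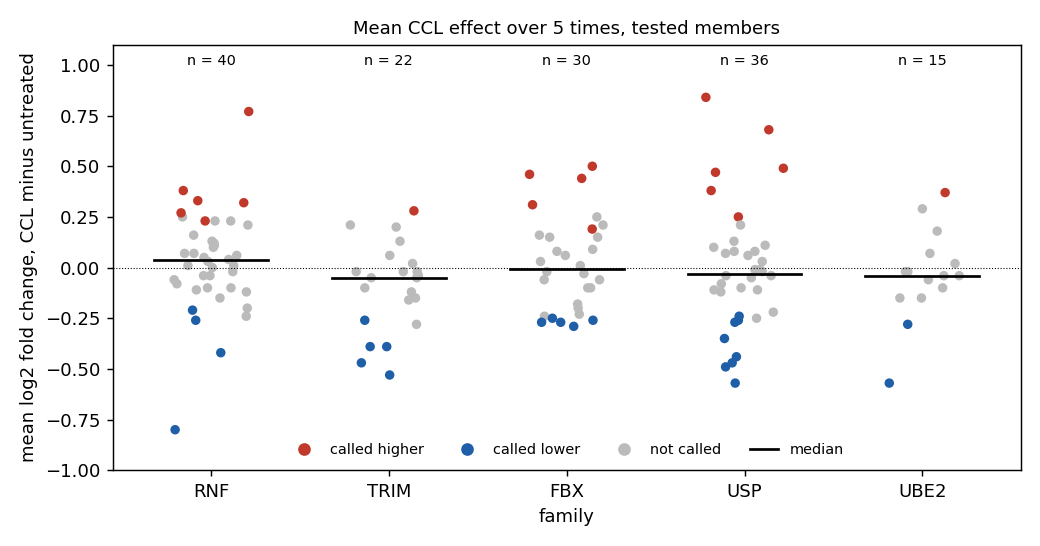
Mean CCL minus untreated difference over 5 times (vertical axis, log2) for each tested member, by family (horizontal axis). Red points passed limma's test as higher, blue points as lower, grey points did not pass, and black bars are family medians. RNF19B at 0.77 and USP12 at 0.84 lie at the top and RNF43 at -0.80 at the bottom, while the family medians stay close to 0.

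Among the E2 enzymes the clearest change was in UBE2T, the E2 that works with the Fanconi anaemia ligase on FANCD2 during repair of DNA cross-links. Its log2 value in CCL-treated cells was lowest at 5.96, with a median of 7.18 and a highest value of 7.74, against 7.22, 7.61 and 8.13 in untreated cells. The ranges overlapped, but the low CCL values lay late in the course. At 48 h the CCL arrays gave 5.96 and 6.58 and the untreated arrays 7.48, 7.22 and 7.37, with no overlap, whereas at 6 h the CCL arrays gave 7.74, 7.54 and 7.59 and the untreated arrays 7.49, 7.70 and 7.30. UBE2T fell by 0.57 ± 0.11 (SE) on the log2 scale in the mean over 5 times, with limma's adjusted p at 0.000231. The differences by time were 0.13 at 6 h, -0.50 at 12 h, -0.65 at 18 h, -0.76 at 24 h and -1.08 at 48 h, of which only the last passed its own test. The F-test for a dependence of the effect on time did not pass (adjusted p = 0.647), so this order is a description.

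UBE2G1, an E2 listed here under endoplasmic reticulum quality control, fell by 0.28 ± 0.07 (adjusted p = 0.00388, limma). Its 13 CCL arrays ran from 8.44 over a median of 8.62 to 8.95, against 8.76, 8.89 and 9.16 in the 14 untreated arrays, and the arms lay apart at 3 of 5 times. With the values as deposited this call was lost (-0.21, adjusted p = 0.0926). UBE2MP1, a pseudogene related to the NEDD8 conjugating enzyme UBE2M, rose by 0.37 ± 0.11 (adjusted p = 0.0108), with 6.88, 7.27 and 7.78 in CCL-treated and 6.40, 6.98 and 7.28 in untreated cells as lowest, median and highest values. The call was lost with array weights (0.31, adjusted p = 0.0608) and without the 6 arrays that stood apart (0.24, adjusted p = 0.163). Its probes may also take signal from near-identical copies, so the source of that signal is uncertain. UBE2S, the chain-extending E2 of the anaphase-promoting complex, did not pass (0.29 ± 0.19, adjusted p = 0.244), with a median log2 value of 4.02 in CCL-treated and 3.76 in untreated cells. It passed the filter on 1 of 13 CCL and 2 of 16 untreated arrays, which are among the 6 that stood apart.

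RNF19B, a membrane-anchored RING-between-RING ligase first described in natural killer cells, was the member with the smallest p. Every CCL array lay above every untreated array: the lowest, median and highest log2 values were 7.04, 7.55 and 7.92 in CCL-treated cells and 6.62, 6.74 and 7.02 in untreated cells. At 48 h the CCL arrays gave 7.92 and 7.62, against 6.73, 6.62 and 6.84 in untreated cells, and at 12 h 7.55, 7.62 and 7.49 against 6.84, 6.68 and 6.69. RNF19B rose by a mean of 0.77 ± 0.08, which is 1.70-fold (adjusted p = 1.02e-07, limma). The differences were 0.35, 0.82, 0.71, 0.93 and 1.04 at 6, 12, 18, 24 and 48 h, and it passed the test at each of the 4 times from 12 h. Among tested members it shared the complete separation of arms with USP31 alone, and over all tested genes 1.1% separated in this way as higher and 0.251% as lower, none of the latter being a member.

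RNF43, the ligase that removes Frizzled receptors from the cell surface and thereby restrains Wnt signalling, was the RNF gene with the largest fall. Its values were 6.32, 7.63 and 8.07 in CCL-treated cells and 7.86, 8.27 and 8.52 in untreated cells (lowest, median, highest), and the arms lay apart at 4 of 5 times. The mean difference was -0.80 ± 0.16, which is 1.74-fold lower (adjusted p = 0.000391), and the differences at the 5 times lay between -0.92 and -0.63. CCL arrays of a group were uneven: at 24 h they gave 6.32 and 8.02, against 7.86, 8.07 and 8.35 in untreated cells, and at 6 h 7.60, 7.34 and 6.68 against 8.27, 8.15 and 7.97. Without the 6 arrays that stood apart the mean difference was -0.52 (adjusted p = 0.00104). RNF43 thus passed the mean comparison but no single time.

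RNF26, a ligase of the endoplasmic reticulum membrane that positions endosomes, fell by 0.42 ± 0.09 (adjusted p = 0.00111), with 7.28, 7.51 and 8.02 in CCL-treated and 7.67, 7.99 and 8.30 in untreated cells. A second probe set of RNF26, at a mean log2 value of 3.97, gave a difference of 0.05, and the call was lost when both were averaged (-0.19, adjusted p = 0.0617). RNF144A, a RING-between-RING ligase, fell by 0.26 ± 0.08 (adjusted p = 0.0186). This call was lost with the deposited values (adjusted p = 0.122) and with array weights (-0.19, adjusted p = 0.188). It was also lost without the 6 arrays that stood apart, with RNF144A then at -0.24. RNF11, an adaptor of endosomal ligases and of the A20 complex that limits NF-kB signalling, rose by 0.38 ± 0.10 (adjusted p = 0.00397), and was at 0.25 (adjusted p = 0.0989) without the 6 arrays that stood apart. RNF14, a RING-between-RING ligase and androgen receptor coactivator, rose by 0.33 ± 0.11 (adjusted p = 0.0193), but not without untreated 18 h set 1 (0.28, adjusted p = 0.0604) or without CCL 24 h set 1 (0.29, adjusted p = 0.059), and was at 0.17 (adjusted p = 0.308) without the 6 arrays that stood apart. With the deposited values the RNF14 call was lost too (0.34, adjusted p = 0.0949). RNF213, the large ligase linked to moyamoya disease, did not pass (0.04 ± 0.11, adjusted p = 0.834).

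Of the TRIM genes, TRIM26, a ligase that acts in antiviral signalling, fell by 0.53 ± 0.11 (adjusted p = 0.000545). Its lowest, median and highest values were 5.72, 6.39 and 6.81 in CCL-treated and 6.30, 6.90 and 7.25 in untreated cells, and the arms lay apart at 3 of 5 times. TRIM24, a chromatin reader and ligase of p53, fell by 0.39 ± 0.09 (adjusted p = 0.00235), and was at -0.28 (adjusted p = 0.0615) without the 6 arrays that stood apart. At 6 h the TRIM24 arrays overlapped, with 8.97, 8.52 and 9.48 in CCL-treated cells and 8.84 ± 0.14 (SD, n = 3) in untreated cells, while the arms lay apart at each later time, with CCL lower. At 24 h it passed its own test with 7.83 and 8.42 in CCL-treated and 8.93, 8.73 and 9.03 in untreated cells (-0.77 ± 0.22, adjusted p = 0.0316), but was at -0.48 (adjusted p = 0.691) without CCL 24 h set 1.

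TRIM32, a ligase mutated in a limb-girdle muscular dystrophy, fell by 0.47 ± 0.17 (adjusted p = 0.0343), and TRIM33, which ubiquitinates SMAD4 and binds chromatin, rose by 0.28 ± 0.10 (adjusted p = 0.0357). Both calls depended on single arrays: leaving out 1 array at a time ended the TRIM32 call in 8 of 29 fits, with adjusted p up to 0.136 and a difference of -0.33 without CCL 48 h set 1, and the TRIM33 call in 12 fits, with adjusted p up to 0.0879 and a difference of 0.25 without the same array. Without the 6 arrays that stood apart TRIM32 was at -0.16 (adjusted p = 0.571), and its call was also lost with the deposited values, with no filter and with array weights (adjusted p between 0.0562 and 0.0632). TRIM33 was at 0.22 (adjusted p = 0.248) without those 6 arrays. TRIM28, a corepressor that silences endogenous retroviruses, did not pass (-0.16 ± 0.10, adjusted p = 0.209). TRIM25, the ligase that acts on the RNA sensor RIG-I, did not pass either (-0.15 ± 0.08, adjusted p = 0.147). Without the 6 arrays that stood apart TRIM25 was at -0.27 (adjusted p = 0.0343).

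Tested F-box genes moved in both directions. FBXO30, a ligase subunit induced in muscle atrophy, rose by 0.50 ± 0.16 (adjusted p = 0.017) and was at 0.43 (adjusted p = 0.111) without the 6 arrays that stood apart. At 6 h its CCL arrays gave 7.20, 7.02 and 8.40 and its untreated arrays 6.81, 7.02 and 7.14, which overlapped. FBXO25, a nuclear F-box protein, rose by 0.46 ± 0.11 (adjusted p = 0.00197), but it passed the filter through CCL arrays alone, with 12 of 13 CCL and 1 of 16 untreated arrays above it. At 48 h its CCL arrays gave 5.63 and 5.62 and its untreated arrays 4.55, 4.62 and 4.83, with no overlap. FBXW5, a receptor of a cullin ligase that acts on TSC2, rose by 0.44 ± 0.10 (adjusted p = 0.00172), with 7.16, 7.80 and 8.25 in CCL-treated and 6.95, 7.37 and 7.91 in untreated cells.

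FBXO22, which targets KDM4 demethylases and BACH1, fell by 0.29 ± 0.07 (adjusted p = 0.00225), and the arms lay apart at 4 of 5 times. Its call was lost with the deposited values (adjusted p = 0.0646) and when averaged with a second probe set at a mean log2 value of 2.80 that gave 0.02 (adjusted p = 0.153). FBXW8, the receptor of the CUL7 ligase, fell by 0.27 ± 0.10 (adjusted p = 0.0333), a call lost in 12 of 29 fits that left out 1 array, with -0.22 (adjusted p = 0.108) without CCL 48 h set 1. FBXO21 fell by 0.27 ± 0.09 (adjusted p = 0.0241), but not without CCL 24 h set 1 (-0.18, adjusted p = 0.102) or CCL 48 h set 1 (-0.20, adjusted p = 0.0933), and was at -0.11 (adjusted p = 0.369) without the 6 arrays that stood apart. With the deposited values neither FBXW8 (adjusted p = 0.172) nor FBXO21 (adjusted p = 0.167) passed limma's test. Array weights also ended both calls (adjusted p = 0.0766 and 0.0679), and no filter ended that of FBXW8 (adjusted p = 0.051). FBXL5, the iron-sensing receptor that degrades IRP2, did not pass (-0.10 ± 0.10, adjusted p = 0.439).

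The deubiquitinases included the member with the highest mean difference. USP12, which works with the WD40 partner UAF1, had lowest, median and highest values of 5.99, 6.66 and 6.94 in CCL-treated and 5.11, 5.77 and 6.23 in untreated cells. It rose by 0.84 ± 0.12, which is 1.79-fold (adjusted p = 8.09e-06). At 18 h the CCL arrays gave 6.75, 6.56 and 6.94 and the untreated arrays 5.11 and 5.82, and at 24 h 6.81 and 6.90 against 5.89, 5.19 and 6.13. The differences by time were 0.42, 0.84, 1.28, 1.12 and 0.55, with the arms apart at 4 of 5 times.

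USP25, a deubiquitinase that acts in inflammatory and antiviral signalling, had 7.21, 7.83 and 8.51 in CCL-treated and 6.61, 7.30 and 7.79 in untreated cells. It rose by 0.68 ± 0.11 (adjusted p = 6.1e-05), and its differences were 0.17, 0.47, 0.91, 1.11 and 0.72 by time. USP31 rose less, by 0.49 ± 0.06, but with complete separation: 8.22, 8.55 and 8.76 in CCL-treated against 7.73, 8.04 and 8.20 in untreated cells (adjusted p = 3.23e-06). USP31 lay higher with CCL at all 5 times, with differences between 0.34 and 0.65.

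USP18, which removes the interferon-induced modifier ISG15 and dampens interferon receptor signalling, fell by 0.57 ± 0.09 (adjusted p = 5.71e-05). Its values were 6.10, 6.54 and 6.87 in CCL-treated and 6.76, 7.18 and 7.43 in untreated cells, and the arms lay apart at 4 of 5 times. Of the 14 genes listed for interferon and antiviral roles, 7 were tested, and USP18 and TRIM26 were the 2 that passed, both lower (28.6%, beside 35.9% of all tested genes, 19.2% lower). USP28, which stabilizes MYC and binds 53BP1, fell by 0.47 ± 0.12 (adjusted p = 0.00344). USP7, which stabilizes MDM2 and p53, did not pass (-0.11 ± 0.08, adjusted p = 0.279).

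USP1 and USP37 fell together with UBE2T among the members listed for mitosis and replication. USP1 removes ubiquitin from FANCD2 and PCNA, and so reverses the reaction that UBE2T takes part in. USP1 had 7.10, 7.79 and 8.16 in CCL-treated and 7.92, 8.18 and 8.48 in untreated cells and fell by 0.44 ± 0.10 (adjusted p = 0.000928), but was at -0.22 (adjusted p = 0.0553) without the 6 arrays that stood apart. USP37, which stabilizes cyclin A at the entry into S phase, had 5.52, 6.26 and 6.82 in CCL-treated and 6.45, 6.75 and 6.93 in untreated cells and fell by 0.49 ± 0.08 (adjusted p = 8.92e-05). Of 8 genes listed for this role 4 were tested, 3 fell (19.2% of all tested genes did) and UBE2S did not pass. A list of proliferation genes moved the same way: all 23 that were tested fell in the mean over 5 times (median -0.66, between -1.36 and -0.19), and at 48 h 18 of the 23 fell (median -1.09, beside 7.35% of all tested genes lower). Their part in the falls of UBE2T, USP1 and USP37 was not tested. The role list and the proliferation list were chosen with earlier results of these data known. Their counts are therefore descriptions and not a test of a role.

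**Figure D2:**
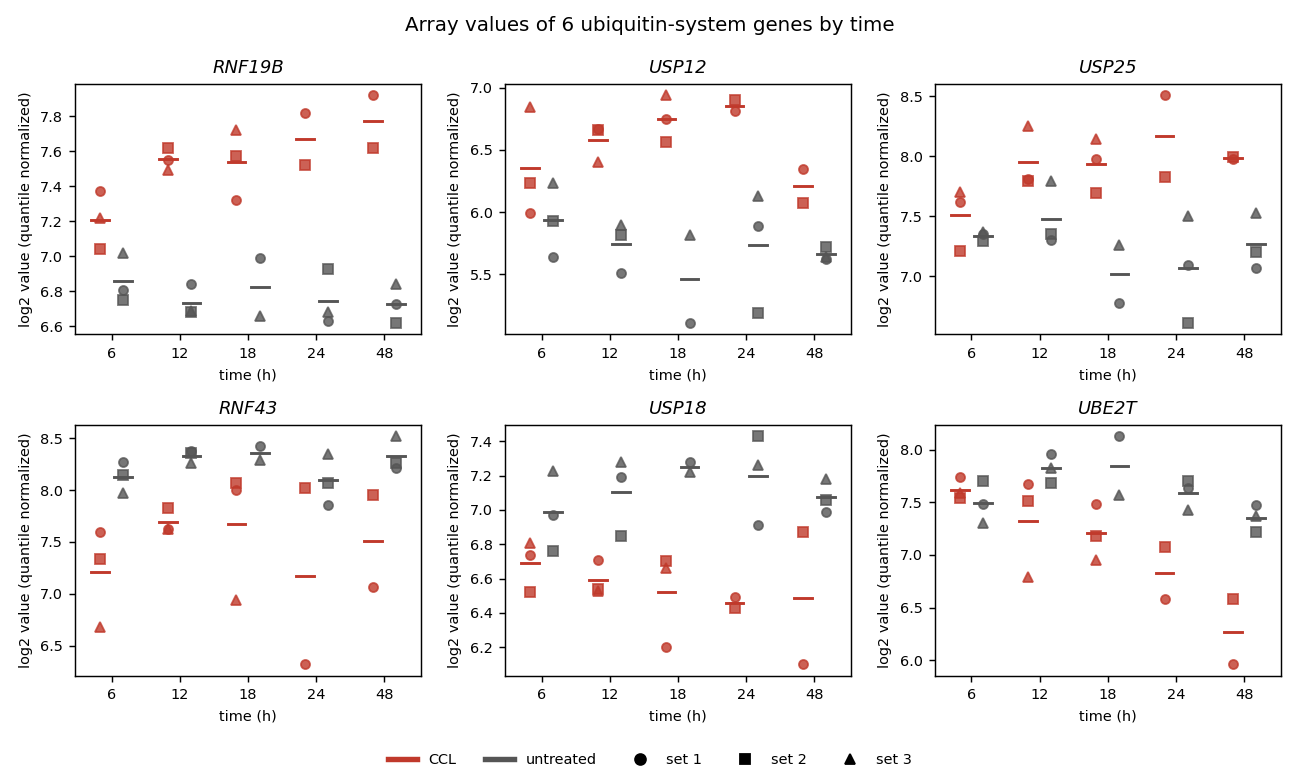
Quantile-normalized log2 value (vertical axis) of RNF19B, USP12, USP25, RNF43, USP18 and UBE2T on each array by time in hours (horizontal axis), CCL in red left of untreated in grey, with symbols for sets 1 to 3 and bars for group means. RNF19B values of CCL-treated cells, from 7.04 to 7.92, lie above all untreated values, from 6.62 to 7.02, while the arms of UBE2T overlap at 6 h and lie apart at 48 h.

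Promoter windows were looked at for members that passed, since several fell or rose together; RefSeq sequences (GRCh38.p14) of 300 bases, 250 before and 50 after the start, matched 205 of 275 members and 33 of the 43. Below are the 250 bases before the start of UBE2T and USP1, which act on the same substrate, of RNF26, which holds the same pair of motifs as UBE2T, and of USP12, the member with the highest rise. RNF14, which rose, held that pair in its window too. Capitals mark TTTGAA (the CHR of cell-cycle genes) and CCAAT (the CCAAT box), read on either strand, so that ATTGG and TTCAAA are the same motifs on the other strand.
UBE2T, chr1:202341937-202342186, minus strand: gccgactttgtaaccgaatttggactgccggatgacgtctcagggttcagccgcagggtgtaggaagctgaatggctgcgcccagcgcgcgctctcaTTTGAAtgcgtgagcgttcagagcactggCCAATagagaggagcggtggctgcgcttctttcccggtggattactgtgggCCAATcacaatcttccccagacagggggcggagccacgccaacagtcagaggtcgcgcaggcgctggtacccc
USP1, chr1:62436145-62436394, plus strand: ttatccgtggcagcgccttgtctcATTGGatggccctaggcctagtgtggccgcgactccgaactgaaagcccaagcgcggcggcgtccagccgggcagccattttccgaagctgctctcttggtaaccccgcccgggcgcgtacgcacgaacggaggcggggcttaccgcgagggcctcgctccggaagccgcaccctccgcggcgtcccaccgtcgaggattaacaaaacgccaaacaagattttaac
RNF26, chr11:119334277-119334526, plus strand: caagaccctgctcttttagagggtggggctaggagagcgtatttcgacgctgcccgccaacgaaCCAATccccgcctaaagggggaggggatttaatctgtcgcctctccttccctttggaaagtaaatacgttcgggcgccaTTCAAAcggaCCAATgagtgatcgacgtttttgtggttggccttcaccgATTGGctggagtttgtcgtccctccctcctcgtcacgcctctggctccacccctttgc
USP12, chr13:27171812-27172061, minus strand: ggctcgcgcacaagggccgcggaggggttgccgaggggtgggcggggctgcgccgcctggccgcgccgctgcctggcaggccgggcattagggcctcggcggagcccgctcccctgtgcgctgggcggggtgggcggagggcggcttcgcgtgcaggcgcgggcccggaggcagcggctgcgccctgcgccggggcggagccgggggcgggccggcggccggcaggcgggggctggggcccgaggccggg

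In UBE2T the TTTGAA match began 153 bases before the start, with CCAAT matches at 124 and 73 bases before it. RNF26 had TTCAAA at 107 bases and CCAAT-type matches at 186, 97 and 58 bases before the start. USP1 had ATTGG at 226 bases before the start and no TTTGAA, and USP12 had none of the motifs searched. Over the 300-base windows, TTTGAA was in 4 of 19 members that fell (21.1%), in 2 of 14 that rose (14.3%) and in 10.1% of 5140 windows of tested genes. CCAAT was in 8 of 19 members that fell (42.1%), in 5 of 14 that rose (35.7%) and in 37.3% of windows of tested genes. Of the other strings searched on both strands, TGACGTCA (CRE), TGANTCA (AP-1), TTTCCCGC (an E2F site) and TGATGNAAN (CARE) were in none of these 33 windows, beside 3.68%, 3.75%, 3.02% and 1.48% of windows of tested genes. TTTGGCGC (an E2F site) was in 1 and CACGTG (the E-box) in 2 of the 19 that fell, beside 1.13% and 10.7%. No motif overlapped another in the printed sequences, and a match is a description of letters, not of a site in use.

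By time, the number of members that passed was 0 at 6 h, 2 at 12 h, 5 at 18 h, 9 at 24 h and 9 at 48 h. At 6 h, none of the 143 tested members passed limma's test (1.35% of all tested genes did), although 15 had an unadjusted p under 0.05 (10.5%, beside 12.3% of all genes), and the lowest adjusted p was 0.0769. At 12 h RNF19B (0.82 ± 0.16, adjusted p = 0.00629) and USP31 (0.59 ± 0.13, adjusted p = 0.0163) rose, which is 1.4% of members beside 2.29% of all genes (1.82% higher, 0.471% lower). USP31 arrays at 12 h gave 8.61, 8.40 and 8.76 in CCL-treated and 7.96, 8.03 and 8.01 in untreated cells, without overlap. The USP31 call at 12 h was lost when any of 5 of the 6 arrays of that time was left out (adjusted p up to 0.105). The RNF19B call there was the only 1 of 25 calls at single times that held in each of the 29 fits without 1 array. With the deposited values neither 12 h call passed limma's test: RNF19B was at 0.80 (adjusted p = 0.061) and USP31 at 0.59 (adjusted p = 0.205).

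At 18 h, 5 members rose and none fell (3.5%, beside 5.34% of all genes, 3.49% higher and 1.85% lower). These were USP12 (1.28 ± 0.28), USP25 (0.91 ± 0.26) and RNF19B (0.71 ± 0.18), and, named after their values were seen, RNF216, a ligase of innate immune receptors (0.62 ± 0.18), and RNF41, a ligase of the receptor ErbB3 (0.59 ± 0.16), with adjusted p between 0.00698 and 0.0406 (limma). The calls at 18 h did not hold without untreated 18 h set 1, which leaves 1 untreated array whose spread is taken from the other groups. USP12 was then at 0.93. That array and CCL 18 h set 3 are among the 6 that stood apart. Without those 6 arrays, which also leaves 1 untreated array at 18 h, USP12 was at 0.84, USP25 at 0.57 and RNF19B at 0.79.

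At 24 h, 7 members rose and 2 fell (6.29%, beside 7.21% of all genes, 4.62% higher and 2.59% lower). USP12 (1.12 ± 0.28), USP25 (1.11 ± 0.26) and RNF19B (0.93 ± 0.18) again gave the highest differences. Another of the 7, USP35, passed the filter through CCL arrays alone, where it was high. TRIM24 (-0.77 ± 0.22) and USP18 (-0.74 ± 0.22) fell, USP18 with 6.49 and 6.43 in CCL-treated and 6.91, 7.43 and 7.26 in untreated cells. All 9 calls were lost without CCL 24 h set 1, which leaves 1 CCL array: RNF19B was then at 0.78 with the highest adjusted p of its fits, 0.139. Leaving out CCL 24 h set 2 also leaves 1 CCL array, set 1, which is among the 6 that stood apart.

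At 48 h, 3 members rose and 6 fell (6.29%, beside 12.6% of all genes, 5.2% higher and 7.35% lower). UBE2T (-1.08 ± 0.25, 2.12-fold lower), USP1 (-0.80 ± 0.22) and USP37 (-0.80 ± 0.19) fell most. USP37 gave 5.52 and 6.17 in CCL-treated and 6.52, 6.73 and 6.69 in untreated cells, and USP1 7.10 and 7.59 against 8.09, 8.18 and 8.19, both without overlap. RNF19B (1.04 ± 0.18, 2.05-fold), FBXO25 (0.96 ± 0.25) and FBXO2, a receptor for glycoproteins exported from the endoplasmic reticulum (0.65 ± 0.21), rose; the FBXO2 arrays gave 7.61 and 7.77 in CCL-treated and 7.16, 7.25 and 6.73 in untreated cells. FBXO25 passed the filter through CCL arrays alone, where it was high, so its rise is not independent of the filter. The FBXO2 call (adjusted p = 0.0497) was lost in 23 of 29 fits without 1 array. All 9 calls were lost without CCL 48 h set 1, which leaves 1 CCL array, with UBE2T then at -0.78. Leaving out CCL 48 h set 2 leaves set 1 alone, which is among the 6 arrays that stood apart.

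**Figure D3:**
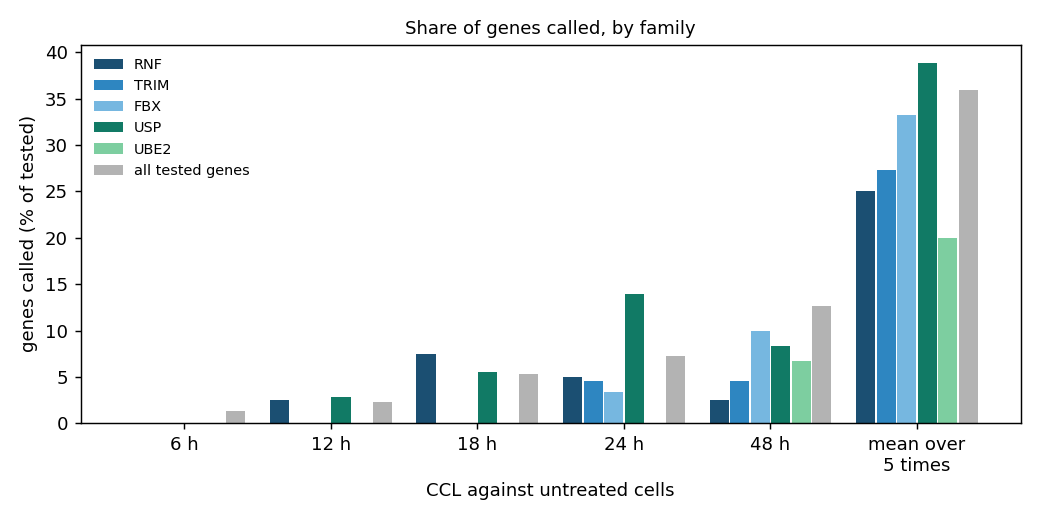
Share of tested genes that passed limma's test, in either direction (vertical axis, %), at each time and in the mean over 5 times (horizontal axis), for the 5 families and, in grey, for all tested genes. In the mean 38.9% of USP genes passed (14 of 36), near the 35.9% of all tested genes, and the other 4 families ran from 20.0% to 33.3%. No difference between families was tested. With the deposited values 4 of 36 USP genes were higher and 4 lower, beside 24.6% of all tested genes that passed.

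Called or not, 21 members were higher and 24 lower with CCL at all 5 times, beside 17.9% and 18.9% of all tested genes. Arms that did not overlap were counted at each time. The counts of members higher and lower were 5 and 21 at 6 h (8.47% and 11.1% of all genes), 18 and 26 at 12 h (16.0% and 17.7%), and 25 and 23 at 18 h (18.1% and 18.0%). They were 23 and 12 at 24 h (15.6% and 12.2%), and 21 and 26 at 48 h (19.0% and 21.9%). No member passed the F-test for a CCL effect that differs between the 5 times (0.0157% of all tested genes did, 1 gene), and 5 members had an unadjusted p under 0.05 (3.5%, beside 6.93% of all genes). In untreated cells at 48 h against 6 h no member passed (0.0157% of all tested genes), and 1 had an unadjusted p under 0.05 (0.699%, beside 2.75%).

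**Figure D4:**
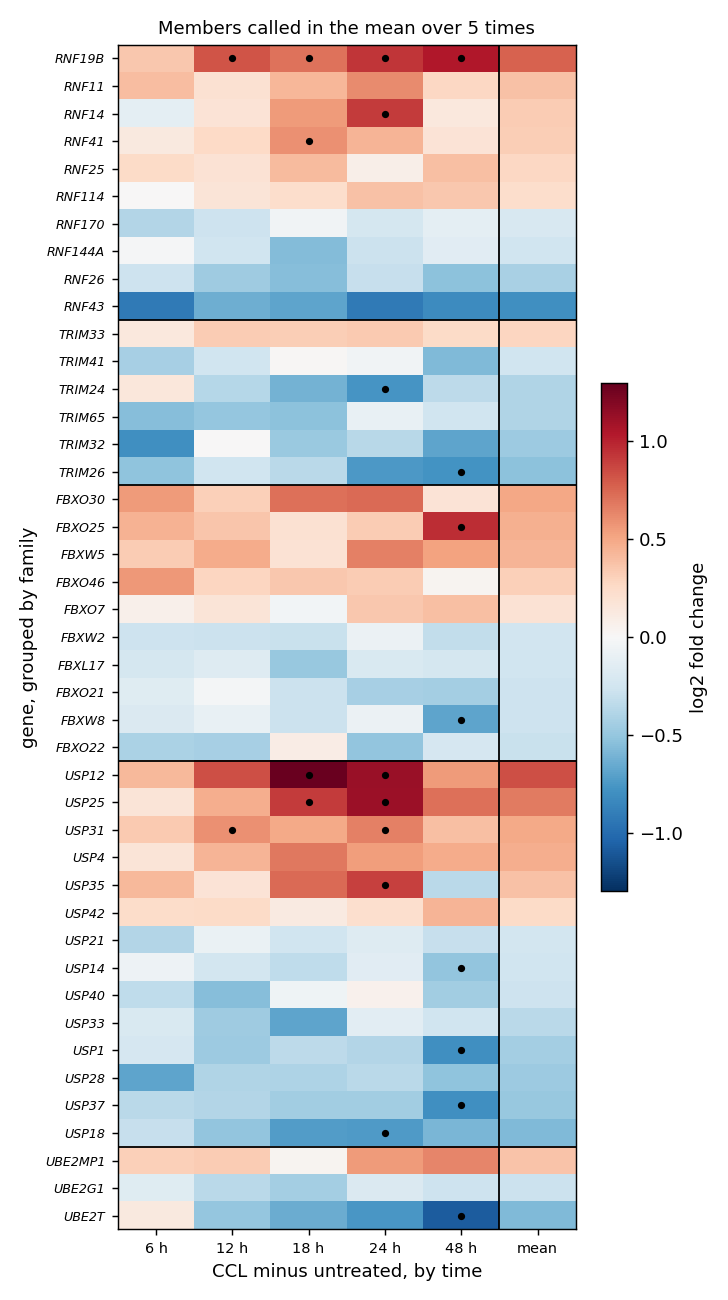
CCL minus untreated difference (colour, log2) for the 43 members that passed in the mean over 5 times (rows, by family), at each time in hours and in the mean (columns); dots mark calls at a single time. RNF19B, USP12 and USP25 show the deepest red, up to 1.28 for USP12 at 18 h, and UBE2T the deepest blue, -1.08 at 48 h.

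The 43 calls in the mean were not equally stable. In the 29 fits that left out 1 array each, 28 of the 43 passed every time, and 13 passed in all 39 alternative settings: UBE2T, RNF19B, RNF41, RNF43, TRIM26, FBXW5, USP4, USP12, USP18, USP25, USP28, USP31 and USP37, of which RNF41 and USP4 were named after their values were seen. A gene that a setting did not test is counted here as not passing in it. FBXO25, for example, passed in 38 of the 39 settings and was not tested under the log2 filter of 6. USP4, a nuclear and cytoplasmic deubiquitinase, had 6.36, 6.69 and 6.97 in CCL-treated and 5.58, 6.22 and 6.65 in untreated cells (0.47 ± 0.10, adjusted p = 0.00114). Without the 6 arrays that stood apart 9 members were higher and 12 lower (23.8% of all genes passed), and 20 of these were among the 43; RNF19B was then at 0.70, USP12 at 0.78 and UBE2T at -0.39. With the deposited values as they stand 148 members were tested, and 14 were higher and 10 lower (24.6% of all genes passed). Only 23 of the 43 calls were kept in that setting. Of the calls on the deposited values 58.3% were higher, beside 44.2% after quantile normalization. Over all tested genes the split moved the same way, with 55.1% of calls higher on the deposited values and 46.5% after quantile normalization.

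Further role lists were counted in the mean, where 35.9% of all tested genes passed. Of 13 tested members with DNA damage or chromatin roles, TRIM33 rose and TRIM24 and USP28 fell (23.1%). Of 13 with membrane or endosomal roles, RNF11 and RNF19B rose and RNF43, RNF144A and USP33 fell (38.5%). Of 11 SCF receptors with known substrates FBXO7 rose and FBXW2 and FBXW8 fell (27.3%). Of 7 listed for endoplasmic reticulum quality control UBE2G1 fell (14.3%), and of 3 acting on ubiquitin-like modifiers USP18 fell (33.3%). USP33, FBXO7 and FBXW2 are named here after their values were seen.

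Among the 132 members below the filter, 3 were higher and 8 lower with CCL in the mean over 5 times when no filter was set. In that fit 20 of all 275 members were higher and 27 lower, beside 8.18% and 9.64% of all 14884 named genes (17.8% in all). These shares include genes above the filter, so they are no background for the 132 members. A share over genes below the filter alone was not computed. FBXO5, the inhibitor of the anaphase-promoting complex also known as EMI1, fell by 0.70 ± 0.11 on the log2 scale (SE, adjusted p = 9.36e-05, limma). Its lowest, median and highest log2 values were 3.19, 3.95 and 4.57 in CCL-treated and 3.96, 4.59 and 5.16 in untreated cells, and the arms lay apart at all 5 times. At 48 h the CCL arrays gave 3.19 and 3.83 and the untreated arrays 4.17, 4.58 and 4.33. FBXO43, the meiotic relative of FBXO5, fell by 0.54 ± 0.10 (adjusted p = 0.000564), and TRIM52 by 0.69 ± 0.15 (adjusted p = 0.00155). TRIM36, RNF157 and TRIM54 were the 3 that rose, by 0.24 ± 0.07, 0.35 ± 0.11 and 0.36 ± 0.12. UBE2N, the E2 of lysine-63 chains, did not pass (-0.21 ± 0.08, adjusted p = 0.089), and neither did UBE2L6, the E2 of ISG15 (-0.24 ± 0.11, adjusted p = 0.137). Apart from FBXO5, UBE2N and UBE2L6, these genes were picked after their values were seen.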

How the data were processed

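Expression was measured on 29 Affymetrix arrays with biotinylated cRNA from total RNA. The submitters' processing notes name Expression Console 1.1 and RMA, and the authors deposited 1 log2 value for each probe set and array. The genome build and annotation behind them are not given in the sources used here, and arrays normalized together are not stated.

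From the deposited log2 values, all 53617 probe sets were quantile-normalized over the 29 arrays, since RMA itself has a quantile step and the deposited medians differed. Of these, 16098 probe sets had 1 gene symbol in the array's probe table, none had several and 37519 had none, and gene IDs were matched to RefSeq. A model with 1 mean per group of arm and time (11 groups) was fitted with limma 3.58.1 in R 4.3.3 (lmFit, eBayes), with two-sided p-values adjusted by Benjamini and Hochberg over 6365 genes and called under 0.05. The labels assign arrays to arm, time and set.

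Members and gene lists were chosen with earlier results of these data known. Members named were, for the mean over 5 times, up to 3 highest and 3 lowest called genes of each family, and at each time up to 3 highest and 3 lowest called members. Besides these, 23 genes were to be named whatever they showed: 12 were tested, 5 lay below the filter (UBE2L6, UBE2N, FBXO32, FBXO5 and TRIM21) and 6 were not analysed here. Alternatives were the deposited values, a shift of medians, no filter, a log2 filter of 6, the set as a replicate block, the compared arrays alone, array weights, a trended spread, the mean of probe sets and leaving out each array in turn. A further one, without the 6 arrays that stood apart, was added after the data were seen. The fits were tested on simulated data of 6365 genes, with 100 genes changed by 0.5 and 100 by 1 on the log2 scale. At single times 6% to 19% of the changes of 0.5 were recovered, and 52% to 70% of the changes of 1. In the mean over 5 times these shares were 76% and 100%. In the simulation small changes at a single time were thus mostly not recovered. It drew independent noise for each array and changed few genes, while in the data 35.9% of tested genes passed in the mean. Its shares may therefore not hold for these data.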

Additional observations from a re-analysis of the deposited data

How the results depend on the processing

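Counts of members that passed are given here as they changed by setting, with the arm comparison by time. Shares over all tested genes are not given beside them, so a changed count is no result about the members. With the deposited values the counts were 0 higher at 12 h, 12 higher at 18 h, 2 higher and 0 lower at 24 h, 1 higher and 3 lower at 48 h, and 10 lower in the mean over 5 times. The deposited scale moved the median difference of all tested genes to 0.41 at 18 h and -0.26 at 48 h. A shift of medians, a filter at log2 6 and a trended spread each gave 1 member lower at 18 h. With compared arrays only, 4 were higher and 2 lower at 12 h, 1 higher at 18 h, and 0 in either direction at 24 and 48 h. Array weights, whose iteration stopped before its tolerance, gave 1 higher and 4 lower at 6 h, 17 higher and 23 lower at 12 h, 1 higher at 18 h, 3 higher and 0 lower at 24 h, 1 higher and 0 lower at 48 h, and 1 higher in untreated cells at 48 h against 6 h. Without the 6 arrays that stood apart, 3 were lower at 6 h and 4 at 12 h, 0 higher at 18 h, 0 in either direction at 24 and 48 h, and 9 higher and 12 lower in the mean. With the set as a replicate block, 1 was lower at 6 h, 4 higher at 12 h, 9 higher and 4 lower at 18 h, 12 higher and 5 lower at 24 h, and 6 higher at 48 h, with all 43 mean calls kept. Arrays of the same set and time correlated above 0.1 in 9 of 12 pairs (from -0.08 to 0.46), not in every pair, and the set was not taken to pair arrays. Leaving out 1 array at a time gave 0 to 0 members in either direction at 6 h, 1 to 3 higher and 0 to 0 lower at 12 h, 0 to 8 higher and 0 to 1 lower at 18 h, 0 to 13 higher and 0 to 11 lower at 24 h, and 0 to 10 higher and 0 to 25 lower at 48 h. In the mean it gave 15 to 23 higher and 15 to 27 lower (15 lower without CCL 48 h set 1), 0 to 3 for an effect that differs between times (3 without CCL 48 h set 2), and 0 to 0 for untreated cells at 48 h against 6 h. RNF213, which did not pass, changed sign: it lay between -0.05 and 0.12 without 1 array, and at -0.02 without the 6 arrays that stood apart. For these changes the cause was not tested. Groups of 2 or 3 arrays limit what a single time can show. Where a group holds 2 arrays, leaving out 1 leaves a single array, and the ranges at 18, 24 and 48 h include such fits.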

Other observations

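Other ubiquitin system genes, outside the 5 families, were counted for comparison: of 187 listed, 112 had a named probe set and 95 were tested, of which 13 rose and 14 fell in the mean (28.4%, median -0.04, beside 35.9% and a median of -0.01 over all tested genes, of which 16.7% rose and 19.2% fell). Among those that rose were SQSTM1, the autophagy receptor p62 that binds ubiquitin chains (0.95 ± 0.11), SMURF1 and SMURF2, ligases of SMAD proteins (0.66 ± 0.07 and 0.52 ± 0.09), and CDC34, the E2 of SCF ligases (0.53 ± 0.13). Among those that fell were UHRF1, a ligase of replicating chromatin (-0.84 ± 0.17), CCNF, an F-box protein of the cell cycle (-0.82 ± 0.14), CDC23 and CDC20, subunit and activator of the anaphase-promoting complex (-0.76 ± 0.10 and -0.58 ± 0.13), and BARD1, the partner of BRCA1 (-0.56 ± 0.11). These genes were picked from the list after their values were seen.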
